A study of Mus musculus with 15 samples.

Results

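The second hour of muscle dissociation was described from 8 bulk RNA-seq libraries of mouse skeletal muscle stem cells, the 4 libraries of time point T120 and the 4 of time point T60, out of 22 libraries in the time course. The 8 were chosen by their time labels alone, and every listed gene entered the comparison. The labels give no unit for the time points, which were taken as minutes, so T60 is 60 and T120 is 120 minutes of dissociation. Both groups are labelled as dissociated and as fixed. Per the labels' protocols dissociation used collagenase with dispase, enzymes that digest the matrix around cells, and fixation used PFA. The T60 and T120 labels name no genotype, strain, age or treatment that would set the groups apart other than time, and the sources used here do not say how the bulk cells were sorted. Another 2 groups served for description only, T0 (4 libraries, labelled intact) and T90 (3 libraries, labelled dissociated). The labels list 15 samples, and the 9 without a file were not analysed here. Libraries carry the letters A to D. The sources do not say whether a letter is an animal, a pool or a culture. The letter was fitted as a block, so the p-values measure how the difference between T120 and T60 varied over the letters. That spread may be technical, and differences between letters common to both time points do not enter it.

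Skeletal muscle stem cells, or satellite cells, lie between the muscle fibre and its basement membrane and rest outside the cell cycle until the muscle is injured. Quiescent cells carry the transcription factor Pax7 and are held at rest in part by Notch signalling. On activation they translate Myod1, grow, build ribosomes and later divide or differentiate. Freeing the cells from the muscle by enzymes is itself an injury, and the first genes to respond in most cells are the immediate early genes, transcription factors such as Fos, Jun and Egr1 that need no new protein to be switched on and are usually shut off again within a few hours.

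Totals over the listed genes were 13006535 to 17938116 counts at T60 and 8647622 to 20529272 counts at T120, and the table lists 8059 genes, with few of weak expression. Levels are given in CPM, counts scaled to a common library total, and are compared within a gene only. Means ± SD are over 4 libraries, or 3 at T90. Satellite cell identity was present in both groups: all 12 fixed satellite cell markers were listed, and their summed level was 6724 to 7513 CPM at T60 and 5757 to 6752 CPM at T120. Of the markers of other cells, 0 of 8 for tenocytes, 0 of 7 for erythroid cells and 1 of 19 for immune cells were listed, the last being Cd68 at 17.4 ± 4.88 and 15.2 ± 6.01 CPM. Endothelial markers stood apart. All 7 listed of 14 fixed were called higher at T120, where 33% of all genes were. No listed gene had a mean under 98.36 normalized counts over all libraries, T120 included. A marker could thus be listed through its T120 level while one low throughout was not, so this count may partly follow the listing. The summed level of the 7 was 135 to 198 CPM at T60, 196 to 263 at T90 and 339 to 634 at T120, with T120 libraries A and C the highest.

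T120 library B stood apart in 3 other signals, and library A in 1 of them, the repeat-like gene models. The 3 signals were not shown to be independent, since Muc16 may be counted among the silent long genes. Muc16, a mucin of surface epithelia, was at 0.953, 19.6, 0.0507 and 0.704 CPM in T120 libraries A to D and at no more than 0.0583 CPM in any T60 library. Outside Ryr3, which is expressed at both times, the 5 other silent long genes averaged 1.46 CPM per kb of exon in T120 library B and 0.137 to 0.365 in the other 7 libraries (T60 0.194 ± 0.0434, T120 0.545 ± 0.615, two-sided exact permutation p = 0.314). With Ryr3 the means were 2.25 ± 0.339 and 1.53 ± 0.471 (exact p = 0.0571, where the smallest possible is 0.0286). A set of 11 unnamed gene models that resemble repeats, such as Gm10800 at chr2:98666547-98667301, summed to 3919 CPM in T120 library A and 9713 in B, against 42.9 in C and 157 in D and 4.38 to 264 at T60. At T0 the same models summed to 6670 to 14221 CPM. Results below were therefore also computed without letter B and without letters A and B.

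**Figure D1:**
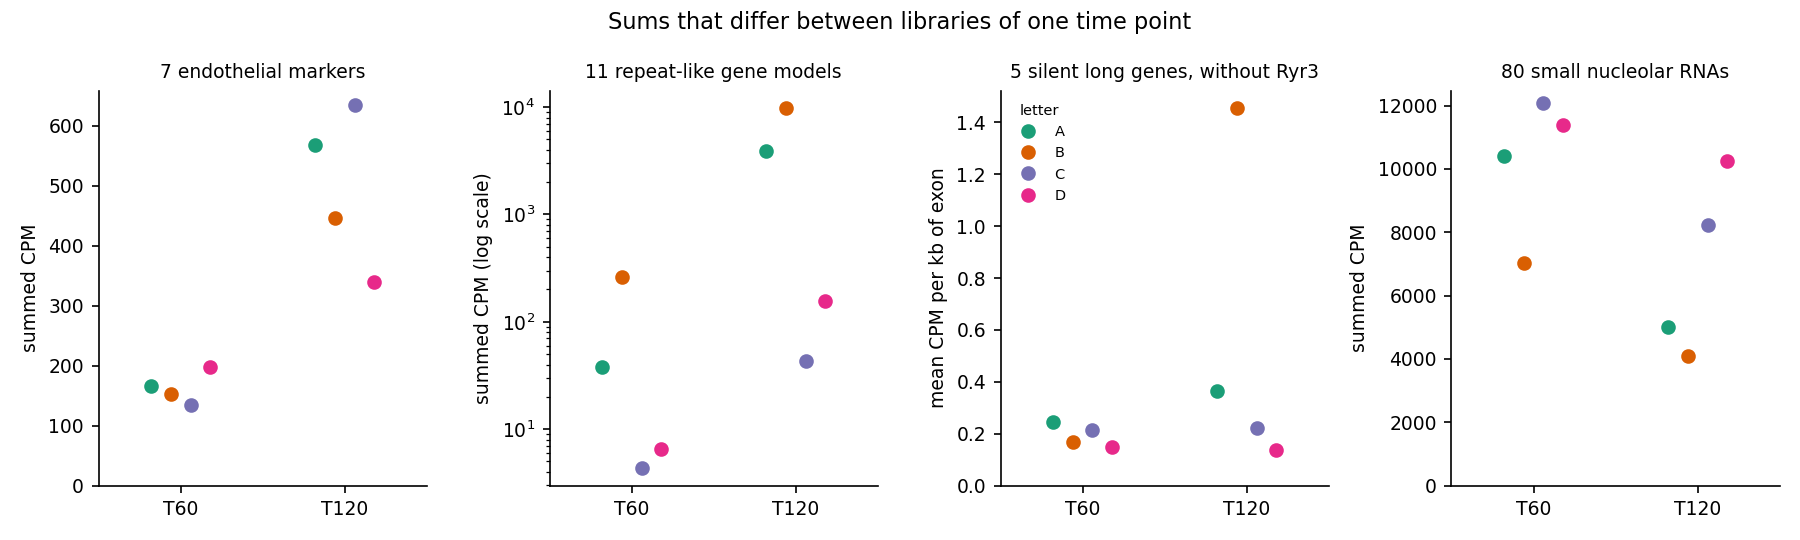
Summed levels per library at T60 and T120 (x axis) for 7 endothelial markers, 11 repeat-like gene models (log axis), 5 silent long genes (mean CPM per kb of exon) and 80 small nucleolar RNAs, 1 point per library and coloured by letter. All 4 T120 libraries lie above all T60 libraries for the endothelial markers, T120 A and B stand apart for the repeat-like models and T120 B alone for the silent genes.

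Gene expression moved broadly. Of 8054 genes tested, 66.8% were called at T120, 2656 (33%) higher and 2726 (33.8%) lower, at an adjusted p under 0.05 in edgeR's quasi-likelihood test with the letter as a block. At least 2-fold changes were called for 562 genes upward (6.98%) and 690 downward (8.57%), and the median log2 fold change of all genes was -0.02. The groups did not overlap for 2312 genes above (28.7%) and 2221 below (27.6%). The 33% and 33.8% are the shares against which the list counts below are to be read. With library totals in place of TMM factors, which moved the median to -0.12, the calls were 2248 higher and 3141 lower. Without letter B they were 2366 higher and 2526 lower, and without letters A and B, which leaves 2 libraries a side, 1525 and 1626. Over all gene lists, the members called higher then went from 478 to 285 and those called lower from 325 to 219. The authors' deposited table has 2325 genes (28.8%) higher and 2584 (32.1%) lower for the same pair, and 4760 genes were called in the same direction in both, with 0 in opposite directions. The first principal component held 71.1% of the variance and separated the time points.

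The T90 libraries, which did not enter these calls, lay between the end points for most of the genes that moved. The T90 mean was between T60 and T120 for 534 of 562 genes that were at least 2-fold higher (95.02%) and for 680 of 690 that were at least 2-fold lower (98.6%). The median share of the log2 change already reached at T90 was 58.5% for the first set and 48.7% for the second.

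**Figure D2:**
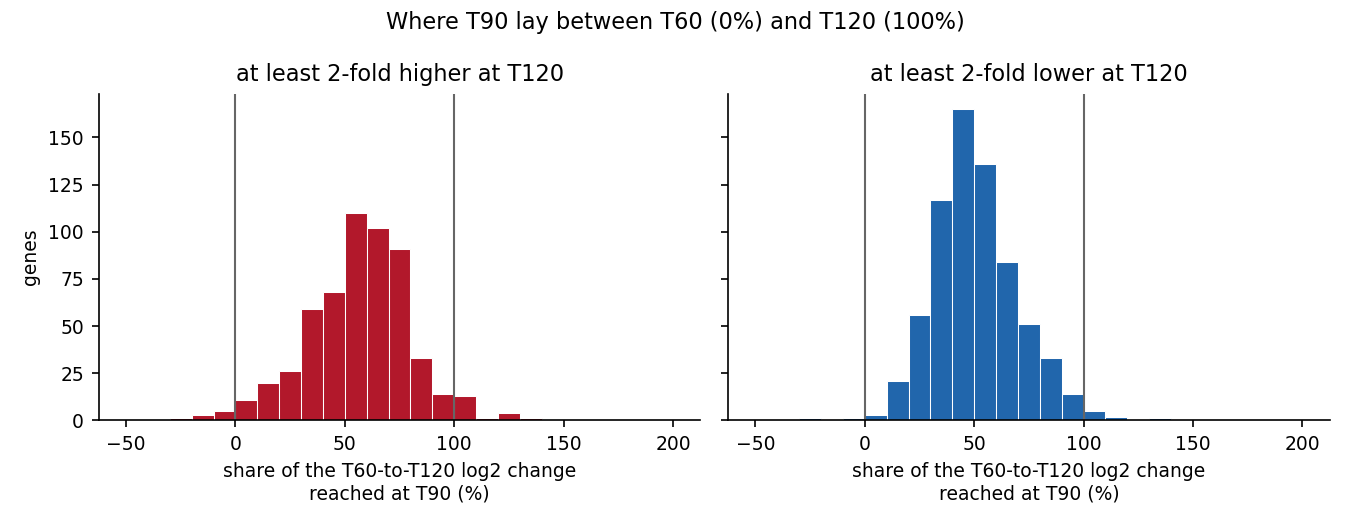
Share of the T60-to-T120 log2 change reached at T90 (x axis, percent) for the 562 genes at least 2-fold higher and the 690 at least 2-fold lower at T120 (y axis, genes per bin of 10 points). Most genes lie between 0 and 100%, with 28 of the first and 10 of the second set outside.

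The myogenic factors moved in different directions. Pax7, the factor that marks satellite cells (chr4:139737062-139833528), was at 1594, 1251, 1446 and 1315 CPM in T60 libraries A to D and at 426, 286, 372 and 284 CPM at T120. Every T120 library was below every T60 library, and the 4.14-fold fall was called (log2 fold change -2.05 ± 0.09 (SE), adjusted p = 3.14e-06). Its T90 level was 755 ± 130.3 CPM and its level at T0 1204 ± 182 CPM. Myod1, which commits satellite cells to the myogenic programme (chr7:46376474-46379099), went from 85.9, 103, 76.2 and 75.7 to 957, 802, 798 and 840.1 CPM. That is a 10-fold rise (3.33 ± 0.11 (SE), adjusted p = 1.18e-06), with no overlap and with T90 at 314 ± 116 CPM.

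Myf5, the other determination factor, overlapped between the groups, with means of 286 ± 23.0 and 262 ± 54.9 CPM (log2 fold change -0.14 ± 0.14 (SE), adjusted p = 0.375). Myog, which drives differentiation, went the opposite way to Myod1. It was low and uneven at T60, at 5.83, 32.8, 17.4 and 5.83 CPM, and lower still at T120, at 0.381, 5.16, 2.68 and 1.84 CPM. Every T120 library was below every T60 library, and the fall was called (-2.56 ± 0.32 (SE), adjusted p = 0.000139). Msc, a repressor of myogenic factors also called MyoR, rose from 90.02 ± 26.7 to 344 ± 28.3 CPM (1.98 ± 0.14 (SE)). The inhibitors of basic helix-loop-helix factors Id1 and Id3 fell, by 1.45 and 1.31 on the log2 scale. Of the 22 tested genes of the myogenic commitment list, 7 rose (31.8%) and 8 fell (36.4%), near the 33% and 33.8% of all genes.

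**Figure D3:**
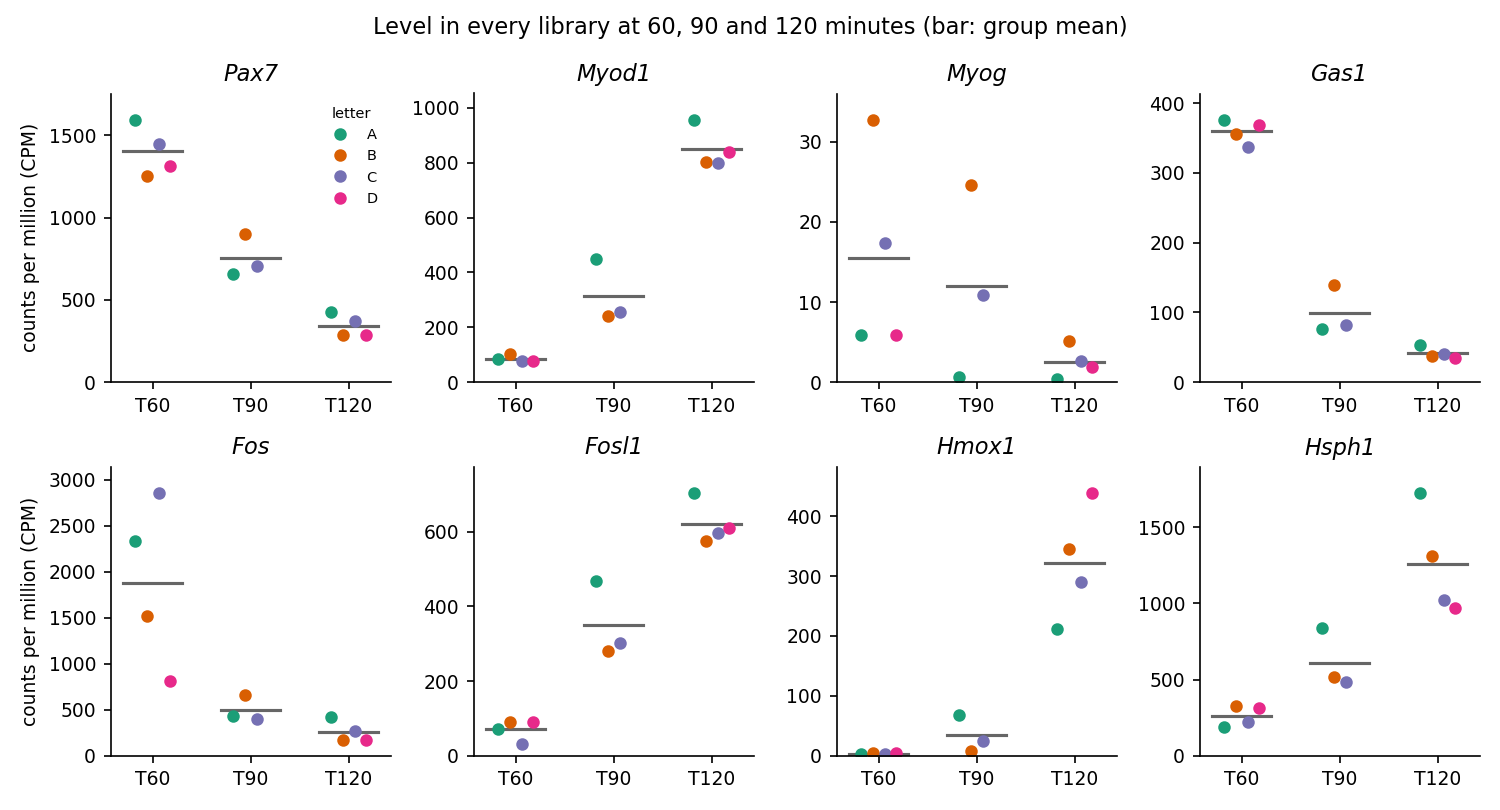
CPM of 8 genes in every library at T60, T90 and T120 (x axis), coloured by letter, with the group mean as a bar and a linear y axis from 0. Pax7, Myog, Gas1 and Fos fall and Myod1, Fosl1, Hmox1 and Hsph1 rise, with T90 means in between.

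Surface proteins and receptors that mark the resting cell fell in part. Cdh15, the cadherin between stem cell and fibre, fell by 1.38 on the log2 scale, from 311 ± 17.4 to 120.2 ± 10.6 CPM. The lectin-like Chodl fell by 1.32 and the receptor Fgfr4 by 1.22. Other receptors of the quiescence list rose: Fgfr1, a receptor for fibroblast growth factors, went from 1264 ± 128 to 3627 ± 454 CPM (1.52 ± 0.08 (SE)) and Met, the receptor for hepatocyte growth factor, from 133 ± 12.9 to 248 ± 17.99 CPM (0.90 ± 0.08 (SE)). Sdc4, a co-receptor that also marks satellite cells, rose by 0.79 ± 0.09 (SE). In all, 4 of the 12 satellite cell markers rose (33.3%) and 6 fell (50%), against 33% and 33.8% of all genes.

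Genes of quiescence were called lower in 25 of 48 cases (52.1%) and higher in 13 (27.1%), against 33.8% and 33% of all genes. Their median log2 fold change was -0.32 against -0.02 over all genes. Gas1, a membrane protein that restrains growth (chr13:60174405-60177365), was at 376, 356, 338 and 369 CPM at T60 and 52.9, 37.5, 39.9 and 35.1 CPM at T120. This 8.81-fold fall (-3.14 ± 0.11 (SE), adjusted p = 1.18e-06) was uniform over the letters and had passed most of its course at T90, at 99.0 ± 35.1 CPM. Spry1, an inhibitor of receptor tyrosine kinase signalling needed for the return to rest, was at 286, 206, 302 and 188 CPM and then at 70.3, 149, 78.8 and 120.4 CPM (-1.26 ± 0.26 (SE)). The list's highest riser was Cdh5, which is also an endothelial marker and rose with the other markers of those cells.

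Of 20 Notch genes tested, 11 fell (55%) and 4 rose (20%), against 33.8% and 33% of all genes. Without letters A and B 7 fell, and without letter A 2 rose. Hes1, the target that Notch switches on first, was at 41.9, 40.2, 70.9 and 22.4 CPM at T60 and 16.7, 7.40, 15.7 and 7.90 CPM at T120. No library overlapped, and the fall was called (-1.85 ± 0.19 (SE), adjusted p = 4.95e-05). The ligand Dll1 fell by 1.22, the target Heyl by 1.02 and the receptor Notch3 by 0.71 on the log2 scale.

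Of 22 FoxO factors and brakes on PI3 kinase tested, 14 fell (63.6%) and 3 rose (13.6%), against 33.8% and 33% of all genes. The median was -0.48, and the highest rise in the list was 1.14 on the log2 scale. Foxo1 went from 193, 191, 209.7 and 167 CPM at T60 to 70.6, 62.2, 63.8 and 56.7 CPM at T120 (-1.58 ± 0.08 (SE), adjusted p = 3.14e-06), and Foxo3 fell by 1.48. Pik3r1 and Pik3r2, regulatory subunits of PI3 kinase, fell by 1.90 and 1.52. Sesn1, which restrains mTORC1 and was named through the p53-regulated list, fell by 1.48 from 56.0 ± 8.76 to 20.04 ± 2.24 CPM.

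Primary cilium genes fell in nearly every case. Quiescent satellite cells carry a primary cilium, an antenna on the cell surface that transmits Hedgehog signals. Of 35 members tested, 31 fell and 0 rose, with a median of -0.80 and 12 falls of at least 2-fold. Without letter B 29 fell, and without letters A and B 27 fell. Gli2, a transcription factor at the end of Hedgehog signalling (chr1:118834132-119053619), was at 160.4, 149, 145 and 149 CPM and then at 57.2, 39.1, 53.3 and 37.7 CPM (-1.71 ± 0.11 (SE), adjusted p = 6.14e-06). T90, at 119.5 ± 16.2 CPM, was nearer to T60. Ift81, of the transport complex inside cilia, was at 27.7 ± 4.21 and 9.21 ± 0.529 CPM (-1.58 ± 0.13 (SE)). Cep164 of the basal body fell by 1.29 and Rpgrip1l of the transition zone by 1.38.

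Immediate early genes fell back from their level at T60. Of 41 tested, 30 fell, 6 rose and 5 were not called, and the median was -0.87. Fos (chr12:85473890-85477273) was at 2328, 1517, 2852 and 815 CPM in T60 libraries A to D and at 421, 165, 269 and 170.3 CPM at T120, with 7.10 ± 2.47 CPM at T0. The T60 libraries differed among themselves by more than 3 times, yet none came down to a T120 library, and the 7.12-fold fall was called (-2.83 ± 0.19 (SE), adjusted p = 7.18e-06). Fosb was at 4978 ± 1153 and 852 ± 438 CPM (-2.66 ± 0.16 (SE)) and Jun at 1613 ± 672 and 302 ± 159.6 CPM (-2.46 ± 0.17 (SE)).

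Egr1 fell less, from 4981, 3457, 5283 and 2387 CPM to 1835, 1317, 1626 and 1575 CPM (-1.28 ± 0.16 (SE), adjusted p = 0.000168), and stayed far above its level of 37.6 ± 10.9 CPM at T0. Atf3, a stress-induced partner of Jun, fell by 1.21, and Junb by 2.03. The suppressor of cytokine signalling Socs3 fell by 2.48 and Btg2, which slows cell cycle entry, fell by 2.61. Zfp36, which destabilises messenger RNAs, fell by 1.51.

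The exceptions within the list rose past their T60 level. Fosl1, the later member of the FOS family also called Fra-1 (chr19:5447547-5455946), was at 70.9, 90.4, 31.9 and 91.3 CPM at T60 and 703, 576, 598 and 609 CPM at T120. This 9.32-fold rise (3.22 ± 0.24 (SE), adjusted p = 1.08e-05) was in every letter, and T90 was at 349.8 ± 103 CPM. Ier5 rose from 42.8 ± 19.02 to 186 ± 33.4 CPM (2.21 ± 0.21 (SE)). Myc, the growth-promoting factor, went from 536, 529, 343 and 530.5 CPM to 1135, 1047, 1045 and 1214 CPM (1.22 ± 0.11 (SE), adjusted p = 3.2e-05). T60 library C was the lowest for each of Fosl1, Ier5 and Myc and the highest for Fos, Jun and Egr1.

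Signalling feedback and cytokine genes were called in both directions. Among inhibitors of MAP kinases and receptors, 7 of 17 tested rose (41.2%) and 8 fell (47.1%), against 33% and 33.8% of all genes. Spry2 rose by 1.44 ± 0.08 (SE) and Spred1 by 1.13 ± 0.11 (SE), both inhibitors of the path from receptor to ERK, while Dusp8 fell by 1.92. Of 20 genes of the NF-kB and cytokine list, 6 rose (30%, or 3 genes without letters A and B) and 7 fell (35%), near the shares of all genes. Nfkb1, a subunit of NF-kB, rose from 283 ± 81.8 to 738 ± 82.2 CPM (1.43 ± 0.15 (SE)) while the inhibitor Nfkbie fell by 1.41 and Birc3, an inhibitor of cell death, by 1.33.

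Haem oxygenase gave the highest rise of any gene that met the rule for naming. Hmox1 (chr8:75093621-75100589) degrades haem and is a target of NRF2, the transcription factor that answers oxidative stress. It was at 3.44, 4.63, 2.19 and 4.13 CPM in T60 libraries A to D, close to the 4.39 ± 1.97 CPM of T0, and at 212, 344, 290.3 and 438 CPM at T120. Every T120 library was far above every T60 library, and the 88.2-fold rise was called (6.46 ± 0.18 (SE), adjusted p = 5.41e-07). T90 was uneven, at 68.35, 8.29 and 25.3 CPM in libraries A to C.

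The antioxidant list, which holds Hmox1, further NRF2 targets, NRF2 and its inhibitor KEAP1 and the metallothioneins, rose in part. Of 26 tested, Hmox1 included, 15 rose (57.7%, against 33% of all genes), 3 fell (5 with library totals only) and 8 were not called, with a median of 0.34 and 8 rises of at least 2-fold. Gclm, a subunit of the enzyme that limits glutathione synthesis, was at 23.2, 21.4, 16.8 and 29.8 CPM and then at 61.5, 76.7, 66.7 and 96.4 CPM (1.73 ± 0.11 (SE), adjusted p = 6.14e-06). The partner subunit Gclc rose by 1.07 ± 0.13 (SE). Srxn1, which repairs oxidised peroxiredoxins, went from 69.2, 55.0, 38.6 and 85.2 CPM to 152, 175, 180.0 and 275 CPM (1.68 ± 0.15 (SE)), and Sqstm1, an autophagy receptor that also frees NRF2, from 658 ± 103 to 1442 ± 176 CPM (1.14 ± 0.11 (SE)). Metallothioneins were not called, apart from Mt1 with library totals only or without letter C: Mt1 was at 346 ± 68.8 and 296 ± 87.6 CPM (adjusted p = 0.108) and Mt2 at 196 ± 32.7 and 194 ± 53.3 CPM (adjusted p = 0.743). Among those that fell were Osgin1, by 1.12, and Cat, the catalase gene, by 0.77.

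Promoter sequences are shown for 4 called genes whose lists have well known regulatory motifs. Each of the 4 holds a match, which most promoters of their lists do not, so the 4 do not represent the lists. The sequences are the 250 bases before the start site, from RefSeq (GRCm38.p6), 5' to 3' on the gene's strand, with the motif match in capitals. The antioxidant element was searched as TGACNNNGC, the AP-1 site as TGANTCA, the heat shock element as GAA, TTC and GAA with NN between them and the cyclic AMP element as TGACGTCA, on both strands. TGACNNNGC and TGANTCA can overlap. Gclm lies at chr3:122245307-122245556, Srxn1 at chr2:152105274-152105523, Hspe1 at chr1:55087898-55088147 and Btg2 at chr1:134079156-134079405, the last on the minus strand and the others on the plus strand.
Gclm: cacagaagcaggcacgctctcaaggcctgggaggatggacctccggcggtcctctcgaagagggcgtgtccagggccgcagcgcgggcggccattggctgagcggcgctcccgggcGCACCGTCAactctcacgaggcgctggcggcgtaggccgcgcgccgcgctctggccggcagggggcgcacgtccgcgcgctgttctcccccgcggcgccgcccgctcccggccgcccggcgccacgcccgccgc
Srxn1: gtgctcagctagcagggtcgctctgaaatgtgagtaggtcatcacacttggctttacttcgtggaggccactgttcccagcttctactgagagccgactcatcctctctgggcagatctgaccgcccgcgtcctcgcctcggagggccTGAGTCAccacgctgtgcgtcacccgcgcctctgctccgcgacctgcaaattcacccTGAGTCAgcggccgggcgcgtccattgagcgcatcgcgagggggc
Hspe1: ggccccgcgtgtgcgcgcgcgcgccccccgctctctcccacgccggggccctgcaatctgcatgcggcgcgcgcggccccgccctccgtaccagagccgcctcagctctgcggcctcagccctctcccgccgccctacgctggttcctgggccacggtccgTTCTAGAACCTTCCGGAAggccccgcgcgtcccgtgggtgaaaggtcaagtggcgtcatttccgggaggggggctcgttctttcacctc
Btg2: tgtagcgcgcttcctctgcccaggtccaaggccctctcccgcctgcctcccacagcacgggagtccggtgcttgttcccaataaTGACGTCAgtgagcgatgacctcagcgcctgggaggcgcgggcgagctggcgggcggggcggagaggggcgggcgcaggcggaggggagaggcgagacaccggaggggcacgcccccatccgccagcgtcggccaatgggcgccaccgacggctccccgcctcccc
Gclm held 1 antioxidant element on the opposite strand, Srxn1 2 AP-1 sites, Hspe1 2 overlapping heat shock elements and Btg2 1 cyclic AMP element.

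Promoters were given for 6139 tested genes. The AP-1 site was in 4.14% of 411 promoters of genes at least 2-fold higher, in 3.41% of 499 of genes at least 2-fold lower and in 3.76% of all. The antioxidant element was in 11.4%, 11.8% and 12.3%, the cyclic AMP element in 2.68%, 2.41% and 3.27% and the heat shock element in 0.73%, 0.20% and 0.31%. The E-box CACGTG, which MYC binds, was in 11.2%, 8.82% and 9.37%, and the E-box CAGCTG, which myogenic factors bind, in 10.5%, 13.8% and 10.7%. These differences were not tested. Within the NRF2 list 6 of 22 promoters held the antioxidant element and 4 of 22 the AP-1 site. Of the heat shock chaperones 2 of 22 held the heat shock element, against 0.31% of all promoters, and of the immediate early genes 3 of 31 held the cyclic AMP element, against 3.27% of all. A match is a string of letters in this window and was not tested for binding.

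Most of the heat shock chaperones were called higher. Of 30 heat shock chaperones tested, 20 rose (66.7%, against 33% of all genes; 12 without letters A and B) and 1 fell (Trap1, the mitochondrial HSP90, by 0.39, a call lost without letters A and B), with a median of 0.53. Without letter A 3 of these genes fell. Hsph1, an exchange factor for HSP70 (chr5:149614287-149636376), was at 192, 325, 221 and 311 CPM and then at 1724, 1313, 1022 and 967 CPM, a 4.76-fold rise without overlap (2.25 ± 0.22 (SE), adjusted p = 3.89e-05). The small chaperone Cryab rose from 62.7 ± 17.7 to 215 ± 34.8 CPM (1.80 ± 0.12 (SE)) and Hsp90aa1, the inducible cytosolic HSP90, from 387 ± 44.4 to 875 ± 256 CPM (1.14 ± 0.14 (SE)). Hspe1 and Hspd1, neighbours that encode the mitochondrial chaperonin pair, rose by 1.13 ± 0.20 (SE) and 0.85 ± 0.09 (SE).

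The inducible HSP70 genes behaved differently from library to library. Hspa1a was at 143, 162, 151 and 154 CPM at T60 and at 473, 153, 134 and 71.7 CPM at T120, so that library A was above every T60 library and library D below all of them (adjusted p = 0.861). Its near-identical neighbour Hspa1b was at 487, 204, 148 and 72.7 CPM at T120, and since reads from the pair can be exchanged, neither value is certain alone. T120 library A was also the highest for Hsph1, Hsp90aa1 and Hspe1.

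All 8 subunits of the CCT chaperonin, which folds actin and tubulin, were called higher, with a median of 0.63 and a range of 0.30 to 0.92. Cct8 rose from 109.9 ± 11.2 to 208 ± 22.8 CPM (0.92 ± 0.08 (SE)). Of 38 proteasome subunits 27 rose (17 without letters A and B) and 2 fell (1 without letter C), with a median of 0.47, and Adrm1, the ubiquitin receptor of the proteasome, rose by 1.08 ± 0.13 (SE).

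Stress genes of the endoplasmic reticulum were called mostly higher, 14 of 24 (6 without letters A and B), and 3 fell. Of the stress sensors Ern1 (IRE1) and Atf6 rose by 1.37 ± 0.09 (SE) and 1.30 ± 0.12 (SE) while Eif2ak3 (PERK) fell by 0.84, and the chaperone Hspa5 rose from 898 ± 143 to 1473 ± 77.9 CPM (0.73 ± 0.11 (SE)), while Herpud1, of the degradation machinery, fell by 0.96. In the integrated stress response list 10 of 21 rose (47.6%) and 5 fell (23.8%), against 33% and 33.8% of all genes. Mthfd2, of mitochondrial folate metabolism, rose by 1.73 ± 0.21 (SE) and Slc7a1, an arginine transporter, by 1.35 ± 0.10 (SE), while Ddit3 (CHOP) was at 45.5, 34.9, 35.9 and 30.5 CPM and then at 20.4, 19.2, 17.5 and 17.2 CPM (-0.97 ± 0.11 (SE), adjusted p = 8.33e-05).

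Genes that build ribosomes gave the most one-sided rise among lists of more than 10 genes. Of 62 tested, 56 rose and 0 fell, with a median of 0.88 and 28 rises of at least 2-fold. Without letter B 54 rose, and without letters A and B 46. Rrp1b, a nucleolar protein of ribosomal RNA processing (chr17:32036100-32062865), was at 41.0, 45.3, 53.6 and 51.6 CPM and then at 132, 179, 139 and 201 CPM (1.75 ± 0.11 (SE), adjusted p = 6.05e-06). Rcl1 and Krr1, of the small subunit processome, rose by 1.70 ± 0.08 (SE) and 1.54 ± 0.10 (SE). Abundant nucleolar proteins rose as well, Ncl from 2626 ± 197 to 4665 ± 228 CPM (0.83 ± 0.09 (SE)) and Npm1 from 321 ± 16.2 to 512 ± 18.7 CPM (0.67 ± 0.08 (SE)). Ubtf, a factor of RNA polymerase I, was among the 6 not called, at 225 ± 13.8 and 213 ± 7.80 CPM (adjusted p = 0.425).

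Translation genes followed with smaller steps. Of 42 initiation factors 30 rose (17 without letters A and B) and 1, Eif4b, fell (by 0.27, a call lost without letter A), with a median of 0.42. Eif4e, which binds the messenger RNA cap, rose by 0.97 ± 0.11 (SE) and its inhibitor Eif4ebp1 by 1.55 ± 0.12 (SE). Among 22 cytosolic aminoacyl-tRNA synthetases 13 rose, led by Cars at 1.41 ± 0.09 (SE), and 4 fell, Dars by 0.88. Of 80 cytosolic ribosomal protein genes 29 rose (19 without letter A, 8 without letters A and B) and 1 fell (0 without A or B, 2 without C), a share of risers near that of all genes, with a median of 0.17. Ribosomal protein genes have many near-identical processed copies, which can divide their reads, and 26 of 47 processed pseudogenes tested were called higher. MYC's partner Max rose from 52.0 ± 3.05 to 122 ± 11.3 CPM (1.23 ± 0.09 (SE)), while the related Bmyc fell from 13.3 ± 3.31 to 1.53 ± 0.387 CPM (-3.14 ± 0.28 (SE)).

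Small nucleolar RNAs, which guide the modification of ribosomal RNA, were called lower for 72 of 80 tested and higher for 0, with a median of -0.62. Their summed level varied widely within a time point: 7035 to 12077 CPM at T60, 4079 to 10255 at T120 and 3525 to 14930 over the 3 T90 libraries. T120 was below T60 within every letter for 56 of the 80. Every T120 library was below every T60 library for only 3 of the 80, where this held for 27.6% of all genes. Without the letter block 13 were called, with all 22 libraries in the fit 0, and without letters A and B 6, each with 0 higher. Of 57 listed genes whose introns or exons hold 73 of them on the same strand, 31 were called higher and 5 lower. Reads of an intronic small RNA and of the unspliced host cannot be told apart in such counts.

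Energy metabolism changed gene by gene. Hk2, the hexokinase of growing muscle cells, went from 71.9, 71.5, 63.8 and 79.1 CPM to 239, 233, 280.5 and 274 CPM (1.84 ± 0.10 (SE), adjusted p = 3.34e-06), and the lactate carrier Slc16a1 rose by 1.21 ± 0.08 (SE). Of 16 glycolysis genes tested 7 rose (43.75%) and 1 fell (6.25%), against 33% and 33.8% of all genes. Pdk4, which holds back pyruvate oxidation, overlapped between the groups at 228 ± 49.5 and 257 ± 25.2 CPM (adjusted p = 0.169), with T90 above both at 369.9 ± 51.8 CPM. Pdk2, of the same family, fell by 1.81 and the opposing phosphatase Pdp1 rose by 1.41 ± 0.09 (SE). Among 66 nuclear-encoded respiratory chain genes 21 fell (12 without the letter block) and 8 rose (4 without letter A, 4 without letter B), with a median of -0.18. The share that fell, 31.8%, was near the 33.8% of all genes, and without letters A and B 7 fell and 1 rose. Ndufv3, of complex I, fell by 1.395.

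Of 26 genes of cholesterol and fatty acid synthesis 13 fell (50%) and 2 rose (7.69%), against 33.8% and 33% of all genes. Scd2, a fatty acid desaturase, went from 202, 188, 213 and 219 CPM to 64.2, 53.2, 73.9 and 59.3 CPM (-1.72 ± 0.09 (SE), adjusted p = 3.14e-06). Fdft1, the squalene synthase, fell by 1.23 and Insig1, which retains the sterol sensor, by 1.06.

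Of 18 clock genes 6 rose (33.3%) and 7 fell (38.9%), near the 33% and 33.8% of all genes. Per1, Dbp and Bhlhe40 fell, by 1.51, 1.63 and 1.93 on the log2 scale, while Cry1 rose by 1.46 ± 0.13 (SE), Nr1d1 by 1.18 ± 0.15 (SE), Arntl by 1.02 ± 0.09 (SE) and Clock by 0.88 ± 0.09 (SE). Of 21 glucocorticoid receptor targets 11 fell (52.4%, or 7 genes without letters A and B) and 4 rose (19.05%). Zbtb16 went from 172 ± 26.5 to 56.3 ± 18.2 CPM (-1.65 ± 0.20 (SE)) and Tsc22d3 (GILZ) from 25.3 ± 3.64 to 12.5 ± 1.26 CPM (-1.02 ± 0.13 (SE)), below its 223 ± 126 CPM at T0, while the kinase Sgk1 rose by 1.19 ± 0.11 (SE).

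Of 17 genes for cell cycle entry in G1, 6 rose (35.3%) and 7 fell (41.2%), near the 33% and 33.8% of all genes. Of the 12 genes for replication and mitosis that were listed, out of 35 fixed, 2 rose (16.7%) and 1 fell (8.33%, or 0 genes without letter A). Both shares were below those of all genes, and 9 genes were not called. Ccnd1, the D-type cyclin of growth signals, was at 59.6, 89.7, 138 and 77.9 CPM and then at 28.0, 46.3, 67.5 and 36.6 CPM. The groups overlapped, but each letter was lower at T120 (-1.04 ± 0.08 (SE), adjusted p = 1.16e-05). Ccnd3 fell by 1.72. The inhibitor Cdkn1a (p21) went from 102, 87.3, 53.4 and 99.9 CPM to 184, 106, 165 and 126 CPM (0.77 ± 0.20 (SE), adjusted p = 0.00762), above the 5.01 ± 0.836 CPM of T0. Among p53-regulated genes 12 of 21 fell (57.1%) and 5 rose (23.8%).

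**Figure D4:**
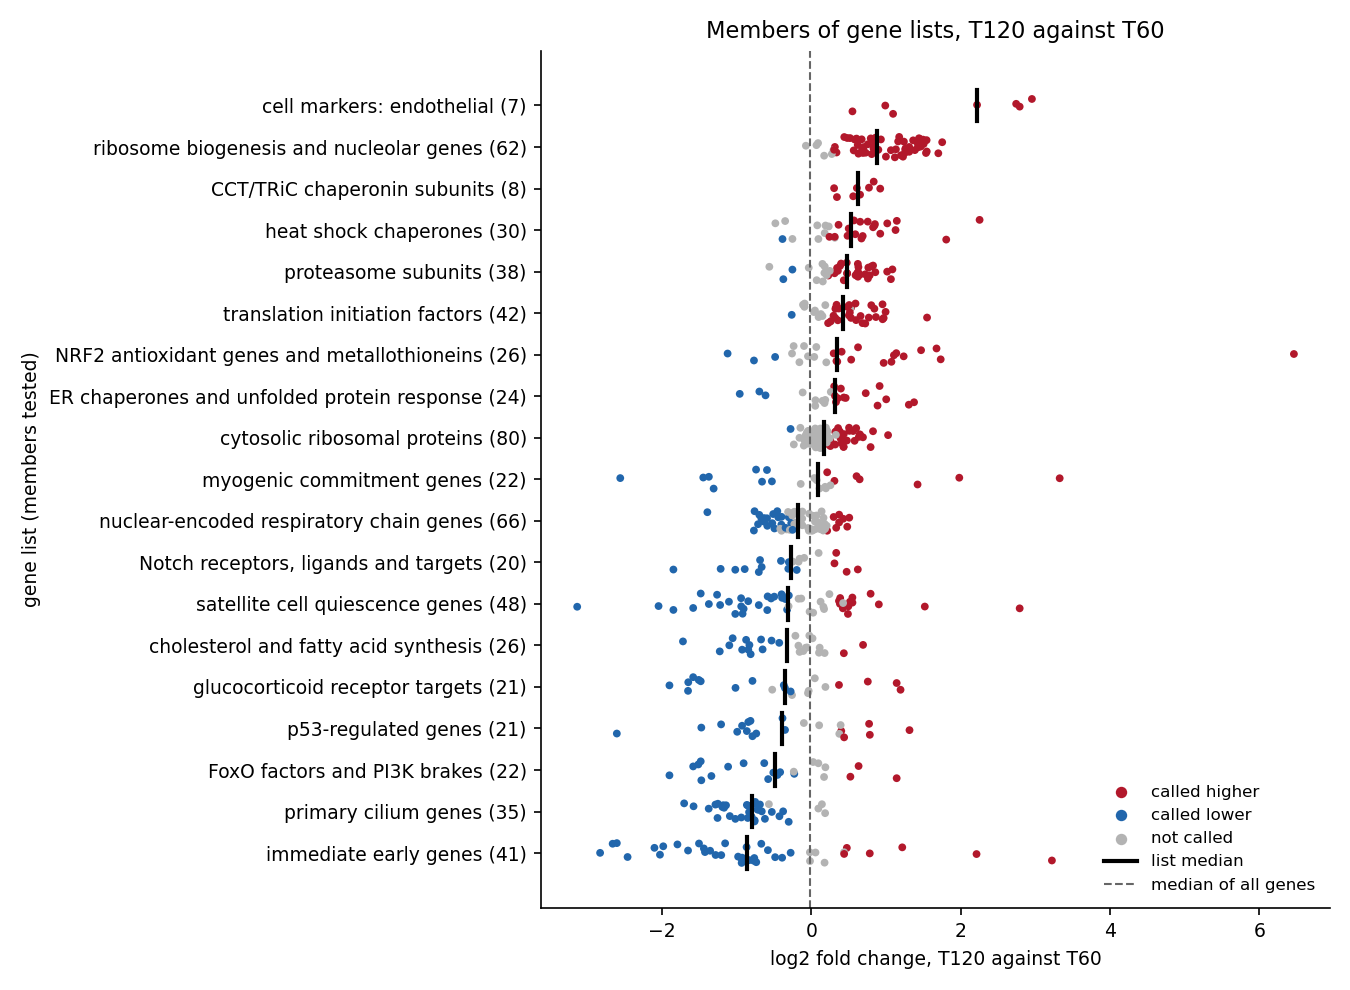
Log2 fold change of T120 against T60 (x axis) for each tested member of 19 gene lists (y axis, number tested in brackets), red where called higher, blue where called lower and grey where not called. Black bars are list medians and the dashed line is the median of all genes, -0.02; ribosome biogenesis and primary cilium genes lie almost wholly on opposite sides of it.

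Of the 12 highest risers by the rule, Rgs5, Myh11 and Flt1 are in the vessel marker lists. Aqp1, Cd36, Cd93 and Adgrf5, also among the 12, are in none of those lists and are known from endothelial cells as background. Rgs5, a pericyte regulator of G protein signalling, was at 4.38, 5.91, 4.71 and 10.5 CPM and then at 143, 73.8, 166 and 68.8 CPM (4.08 ± 0.38 (SE), adjusted p = 3.17e-05). Flt1, a receptor for vascular endothelial growth factor, was at 8.75, 12.5, 8.09 and 27.4 CPM and then at 119.7, 86.0, 152 and 61.3 CPM (2.95 ± 0.44 (SE), adjusted p = 0.000395). The same order of libraries recurred: T60 D was the highest at T60, and T120 A and C were above B and D for both genes. Cdh5, the cadherin of endothelial junctions, was at 13.2 ± 7.95 and 91.9 ± 44.4 CPM (2.79 ± 0.56 (SE), adjusted p = 0.00208), a call lost without letters A and B. Of the 7 endothelial markers 6 were still called without letter B and 5 without letters A and B.

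Markers of mural cells were divided. Of 8 smooth muscle and pericyte markers 3 rose (Rgs5, Myh11 and Pdgfrb, the last not without letters A and B) and 3 fell. Of 4 Schwann cell markers 2 rose (50%, or 1 gene without letter A or C) and 1 fell (25%), against 33% and 33.8% of all genes. Of 9 muscle fibre markers 2 rose (22.2%, or 1 gene without A, B or C and 4 without D) and 1 fell (11.1%). Summed levels at T60 and T120 were 829 to 950 and 646 to 818 CPM for Schwann cells and 406 to 545 and 353 to 590 CPM for fibres. Among the risers, Mbp of Schwann cells went from 7.14 ± 2.16 to 22.2 ± 10.8 CPM (1.54 ± 0.40 (SE)). Myh4 of fast fibres went from 11.4 ± 3.61 to 34.0 ± 15.6 CPM (1.495 ± 0.39 (SE)), and both calls were lost without letters A and B. Of 7 fibro-adipogenic markers 3 rose and 3 fell (1 without letter B). The part of these cells in the results above was not tested, and in bulk libraries more cells of a type and more RNA per cell cannot be told apart.

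Oxtr, the oxytocin receptor and another of the 12 highest risers, was at 4.14, 3.77, 3.25 and 2.999 CPM and then at 55.8, 129, 97.3 and 154 CPM, a 28.9-fold rise without overlap (4.85 ± 0.27 (SE), adjusted p = 4.05e-06), and T90 was at 36.0 ± 18.8 CPM. Among the 12 deepest falls not yet described were Lmod2, an actin filament nucleator of muscle, by 2.71, G0s2, an inhibitor of lipolysis, by 2.58, the protease Adamts15 by 2.37 and Tril, an accessory to Toll-like receptors, by 2.32.

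Of 52 matrix genes tested 21 rose (40.4%) and 13 fell (25%, or 4 genes without letters A and B), against 33% and 33.8% of all genes. Vcan, a large matrix proteoglycan, rose from 16.5 ± 2.21 to 61.7 ± 4.60 CPM (1.91 ± 0.12 (SE)), and the protease Adamts5, which cuts it, fell from 258 ± 13.1 to 114 ± 29.7 CPM (-1.21 ± 0.12 (SE)). Lama4 and Itga6, a laminin chain and an integrin found in vessels, rose by 2.76 ± 0.33 (SE) and 2.08 ± 0.29 (SE), with T120 library D the lowest for each, as for Flt1. Col1a1 and Col1a2, collagens of fibroblasts, rose by 1.14 ± 0.15 (SE) and 1.53 ± 0.23 (SE). Other collagens were lower: Col15a1 fell by 0.57, Col6a2 fell by 0.45 and Col3a1, a fibro-adipogenic marker, fell by 0.31, a call lost without letters A and B. The further fibro-adipogenic markers Dpt and Gsn fell by 0.28 and 0.27, calls lost without letter B, Dpt also without letter A or without the letter block and Gsn also without letter D.

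Called direction differed with gene length and more with expression level. Among protein-coding genes sorted by the span from first to last base, the longest of 4 equal groups had 39.7% called lower and 30.7% higher, against 29.95% and 34.2% in the shortest. With 4 equal groups by mean level, in the lowest 14.3% were called higher and 44.2% lower, and in the highest 49.97% and 23.7%. These differences were not tested. The level was the mean of T60 and T120, which also gave the calls, whereas weakly expressed genes are missing by their mean over all libraries. A gene low at T60 and T120 could be listed through its level at earlier times. The lowest group may therefore hold more fallers through the listing alone.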

How the data were processed

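Bulk RNA of mouse muscle stem cells was measured in 22 libraries, of which the 4 at T60 and the 4 at T120 were compared. Per the file headers the deposited table holds whole-number counts per gene, values the authors scaled per library, and log2 fold changes with adjusted p-values from the authors. Per the labels' protocols RNA came from a kit for fixed samples and the stranded total RNA libraries were read as 65-base single reads. Cutadapt 1.11, DESeq2 1.18.1 and featureCounts 1.4.5-p3 are the tools and mm10 the build that the submitters' processing notes name. For the aligner, annotation and strand setting the sources used here give nothing. The lowest mean normalized count over all libraries is 98.4 in the authors' column, so weakly expressed genes are not in the table, and 0 mitochondrial genes are listed. The 22 columns of scaled values were not used.

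The test was edgeR 4.0.16 (R 4.3.3, quasi-likelihood F test, TMM factors, filterByExpr, Benjamini-Hochberg over 8054 genes), with the letter as a block, and a gene was called at an adjusted p under 0.05. SE is the fold change over the root of F. The block was set by the way the comparison was defined. Deviations from the group means of same-letter libraries correlated at 0.48 (A), 0.45 (B), 0.19 (C) and 0.35 (D). Those of different letters correlated at -0.40 to 0.19. T60 D with T120 C gave 0.186 against 0.194 for the 2 libraries C, so the pairing of letter C did not stand out. CPM at T60 and T120 use TMM factors of the 8 libraries and at T0 and T90 those of all 22. Names and positions are from GENCODE vM21 (8049 of 8059 identifiers matched) and promoters from RefSeq.

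The genes named are the 12 highest rises and 12 deepest falls among called genes with a mean of at least 5 CPM in the higher group and 1 direction in all 4 letters, up to 4 called members per list and direction, and 18 always given. Cd68, Gclc, Gm10800, Hspa1b, Hspa5, Hspd1, Mt1, Mt2, Muc16, Ncl, Npm1, Tsc22d3 and Ubtf were chosen after their values were seen. Some genes that the rule names are not reported here. Members and lists were chosen with earlier results of these data known, so a list has counts and a median and no test. Alternatives changed the block, scaling, filter, tool (DESeq2 1.42.0, limma 3.58.1), spread and libraries.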

Additional observations from a re-analysis of the deposited data

Results flagged for a closer look

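In 21 of 320 groups of 4 libraries examined, 1 library lay farther from the other 3 than Dixon's critical value allows, where chance gives about 1 in 20 groups. Muc16 was at 19.6 CPM in T120 library B and at most 0.953 in the others, and at 0.0583 CPM in T60 library A with 0 in the others. The repeat-like models summed to 264 CPM in T60 library B and at most 38.1 in the others, with Gm10800 at 91.0 CPM there and at most 13.5 elsewhere at T60. The summed satellite cell markers were at 6752 CPM in T120 library D and at 5757 to 5821 in A, B and C.

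Library A stood apart at T60 for Adamts5 (277.9 CPM, others 250.1 to 254) and Notch3 (975 CPM, others 797 to 816) upward, and for Cct8 (93.1 CPM, others 115 to 116) and Hspd1 (53.6 CPM, others 68.5 to 70.9) downward. At T120 it was high for Lmod2 (44.6 CPM, others 17.3 to 20.9).

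T60 library C was low for Myc (343 CPM, others 529 to 536), T120 library C for Cryab (164 CPM, others 228 to 239) and T120 library B for Spred1 (277 CPM, others 358 to 366), while T120 library B was high for Eif2ak3 (26.35 CPM, others 19.9 to 20.8). Library D was high at T60 for Aqp1 (18.1 CPM, others 6.01 to 7.69) and at T120 for Krr1 (99.6 CPM, others 76.4 to 77.5), Met (275 CPM, others 236 to 242) and Slc16a1 (204 CPM, others 159.6 to 164). It was low at T120 for Cep164 (8.28 CPM, others 15.04 to 16.3), Dll1 (18.2 CPM, others 29.3 to 31.0) and Lama4 (13.2 CPM, others 28.8 to 31.4). Each of these genes but Muc16 was called in the same direction under all 22 alternatives; Muc16 did not pass the filter on low counts and was not tested.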

How the results depend on the processing

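Of 137 called genes named in the text, 128 were called in the same direction under each of 22 alternatives. The exceptions were Cdh5, Mbp, Myh4, Pdgfrb and Trap1, lost without letters A and B, Eif4b, lost there and without letter A, and Col3a1, Dpt and Gsn, lost there, with all 22 libraries in the fit and without some single libraries. Counts of genes called were 2248 to 2709 higher and 2176 to 3141 lower with the block, scaling, filter, tool, spread or 1 library changed. Leaving out 1 letter gave 2289 to 2466 higher and 2377 to 2526 lower. Leaving out letters A and B, chosen after seeing the data, gave 1525 and 1626, with 2 libraries a side, and the called list members higher fell to 285 from 478. With library totals in place of TMM factors the median of all genes moved from -0.02 to -0.12, and the split from 2656 and 2726 to 2248 and 3141. Without the replicate block the counts were 2537 and 2431, Dpt alone of the named genes lost its call, and 13 in place of 72 small nucleolar RNAs fell. Pdk4 and Hspa1b, not called, were called without the block once T60 library D or T120 library D was left out.

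The silent long gene difference, -0.72 CPM per kb at T120, had the opposite sign without Ryr3 (0.35, exact p = 0.314) and without Ryr3 and T120 library B (0.047, exact p = 0.6), and leaving out 1 library gave -0.93 to -0.58. T90 lay between the end points for 521 to 537 of 562 risers and 652 to 682 of 690 fallers when 1 T90 library was left out. Counting error is largest for genes of a few CPM. Of the list counts recomputed, 69 of 688 moved by more than 1.5 times.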

Other observations

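Of 33 genes of the mechanical response through YAP and SRF 11 were called higher (33.3%) and 15 lower (45.5%), against 33% and 33.8% of all genes, and 2 closely related secreted targets moved apart. Ccn2, a matricellular protein also called CTGF, was at 58.8, 65.5, 59.6 and 61.9 CPM in T60 libraries A to D and at 207, 306, 180.0 and 441 CPM at T120 (log2 fold change 2.12 ± 0.18 (SE), adjusted p = 2.21e-05). Ccn1, its relative also called CYR61, was at 316, 262, 417 and 178 CPM and then at 101, 71.0, 72.2 and 81.2 CPM (-1.80 ± 0.19 (SE), adjusted p = 6.66e-05). Neither gene overlapped between the time points.

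Among 68 splicing factors 33 were called higher (48.5%) and 8 lower (11.8%), against 33% and 33.8% of all genes. Their median log2 fold change was 0.20. Among 57 histone-modifying enzymes 21 were called higher (36.8%, near the share of all genes) and 11 lower (19.3%), or 7 and 8 genes without letters A and B. Without letter B the splicing counts were 34 and 6, and without letters A and B 16 and 2. Shares at or below those of all genes were called for 49 autophagy and lysosome genes (26.5% higher and 26.5% lower) and for 162 zinc finger genes (32.7% and 29.6%). Of 17 genes of STAT3 signalling 7 were higher (41.2%) and 6 lower (35.3%), and of 23 regulators of pyruvate and lipid use 7 (30.4%) and 6 (26.1%). The last include Cd36 and Fabp4, which rose with the endothelial markers. Pim1, a kinase that STAT3 induces, rose from 126 ± 42.3 to 289 ± 69.9 CPM (1.22 ± 0.22 (SE)).

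Of 51 long intergenic noncoding RNAs tested 15 were called higher (29.4%) and 20 lower (39.2%), near the shares of all genes. Among noncoding RNAs H19, an imprinted RNA of growing tissue, fell by 1.03 on the log2 scale, Meg3, of another imprinted locus, fell by 0.59, and Neat1, the scaffold of nuclear paraspeckles, rose from 2916 ± 610.2 to 4839 ± 668 CPM (0.74 ± 0.13 (SE)). Malat1, a nuclear RNA, was at 38288 ± 2244 and 40724 ± 4019 CPM (adjusted p = 0.421). These 4 were chosen after their values were seen.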
